A study of Mus musculus with 11 samples.

Results

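Nuclear receptors are the subject here: 35 genes for xenobiotic, lipid, retinoid, vitamin D, thyroid, steroid and orphan receptors, taken by gene symbol from the 43346 genes of a count table of mouse colon. All 35 symbols were found. The table compares 5 germ-free with 6 humanized male Swiss Webster mice, all studied at 8 to 10 weeks of age. Germ-free mice were kept without any microbe. Humanized mice came from the same germ-free conditions, received 300 μL of a suspension of stool from a human donor by gavage at 4 to 5 weeks of age and were then given 4 to 5 weeks for the microbiota to settle. Polyadenylated RNA of colonic tissue was sequenced from each mouse, and 101 bp read pairs were counted per gene. All humanized mice carry the microbiota of 1 donor, and the labels name no litter, cage or sequencing batch, so p-values measure the spread between these mice and no comparison within batches could be made. In bulk tissue, fewer cells of a type and less RNA per cell cannot be told apart.

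Nuclear receptors are transcription factors that bind DNA through a conserved zinc-finger domain and, in most cases, change their activity when a small lipid-soluble ligand occupies a separate ligand-binding domain. Many of them, including the PPARs, LXRs, PXR, CAR, RARs, the vitamin D receptor and the thyroid hormone receptors, bind as heterodimers with a retinoid X receptor, and exchange corepressors for coactivators on ligand binding. In the gut, HNF4A maintains the enterocyte programme, PPARG is a fatty acid sensor abundant in colonocytes, PXR and CAR control genes of drug metabolism, and the NR4A receptors are immediate early genes without a known need for a ligand.

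Promoter sequences were available from RefSeq (GRCm38.p6, 250 bases before to 50 bases after each transcription start) for 32 of the 35 receptors, with 51 promoters in all. Nr3c1, Thra and Hnf4g had no entry. A pair of short motifs was searched on both strands: TGACG, the core of the cAMP response element through which immediate early genes are induced, and AGGTCA, the core bound by many nuclear receptors themselves. TGACG occurred in 20.8% of all 32851 promoters and in 15 of the 51 receptor promoters, which belong to 13 genes. The 3 NR4A genes held 4 matches each and were the only receptors with 4 or more, a number reached by 0.231% of all promoters. They are shown because the expression of these 3 paralogs is compared below, with TGACG or its reverse complement in capitals.
Nr4a1 promoter, chr15:101266596-101266895, plus strand: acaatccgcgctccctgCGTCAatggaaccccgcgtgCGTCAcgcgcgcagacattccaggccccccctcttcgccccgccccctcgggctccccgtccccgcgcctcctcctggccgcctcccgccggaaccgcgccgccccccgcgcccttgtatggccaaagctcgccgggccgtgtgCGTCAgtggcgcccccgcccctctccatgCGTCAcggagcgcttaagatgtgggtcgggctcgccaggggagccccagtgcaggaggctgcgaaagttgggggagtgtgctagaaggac
Nr4a2 promoter, chr2:57123954-57124253, minus strand: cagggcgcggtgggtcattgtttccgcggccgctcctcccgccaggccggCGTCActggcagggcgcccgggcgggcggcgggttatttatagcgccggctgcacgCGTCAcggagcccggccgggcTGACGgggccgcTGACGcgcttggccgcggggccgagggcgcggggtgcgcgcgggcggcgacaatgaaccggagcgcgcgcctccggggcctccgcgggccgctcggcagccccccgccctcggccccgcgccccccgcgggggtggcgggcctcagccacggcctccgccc
Nr4a3 promoter, chr4:48045055-48045354, plus strand: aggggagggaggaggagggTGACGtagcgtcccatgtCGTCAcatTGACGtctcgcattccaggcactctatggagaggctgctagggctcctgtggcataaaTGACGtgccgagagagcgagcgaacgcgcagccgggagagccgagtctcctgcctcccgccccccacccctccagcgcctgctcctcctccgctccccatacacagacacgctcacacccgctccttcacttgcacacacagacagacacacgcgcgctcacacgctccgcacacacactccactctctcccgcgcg

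AGGTCA occurred in 16.3% of all promoters and in 9 of the 51 receptor promoters, from 8 genes. Pparg, the receptor with the lowest FDR, had 3 promoters in the table, and the 2 with a match are shown, with AGGTCA in capitals. In none of these 5 promoters did the other motif occur.
Pparg promoter, chr6:115360894-115361193, plus strand: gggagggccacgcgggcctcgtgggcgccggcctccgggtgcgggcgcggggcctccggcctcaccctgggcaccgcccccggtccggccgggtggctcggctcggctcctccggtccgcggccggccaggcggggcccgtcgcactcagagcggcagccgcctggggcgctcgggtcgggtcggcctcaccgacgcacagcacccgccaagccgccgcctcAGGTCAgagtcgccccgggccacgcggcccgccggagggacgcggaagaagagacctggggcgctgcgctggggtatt
Pparg promoter, chr6:115362099-115362398, plus strand: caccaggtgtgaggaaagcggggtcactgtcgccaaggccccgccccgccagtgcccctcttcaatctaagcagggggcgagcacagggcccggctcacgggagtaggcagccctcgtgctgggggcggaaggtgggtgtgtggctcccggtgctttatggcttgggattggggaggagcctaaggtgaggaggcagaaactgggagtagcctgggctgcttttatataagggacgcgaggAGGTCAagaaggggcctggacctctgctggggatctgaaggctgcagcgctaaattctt
The matches are descriptions of these letters in these windows and show neither a bound factor nor a cause of any difference in expression.

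Between 49097005 and 64148538 reads per germ-free mouse and between 39125290 and 54219854 reads per humanized mouse were counted on genes. Markers of the epithelium overlapped between the groups in total, with summed CPM (counts scaled to a common library size) of 7702 to 10479 in germ-free and 8806 to 11998 in humanized mice and 2 of 11 genes higher at FDR < 0.01 (Krt18 and Elf3), while all 11 had values above 0 for the log2-fold change of humanized over germ-free mice (median 0.21, from 0.045 for Epcam to 0.48 for Krt18). Of markers of the outer wall and stroma, all 10 smooth muscle markers (834 to 2381 CPM in germ-free against 95.9 to 856 CPM in humanized mice), 6 of 7 fibroblast markers (1415 to 1936 against 131 to 1047 CPM) and 7 of 8 markers of enteric neurons and glia (18.9 to 27.9 against 2.99 to 8.64 CPM) were called lower in humanized mice. With the quasi-likelihood test the calls of the smooth muscle genes Actg2, Des, Lmod1, Synpo2 and Myh11, the fibroblast genes Dcn and Col3a1 and the neuronal gene Tubb3 ended. None of the 7 endothelial markers was called, while their sum did not overlap between the groups (108 to 130 against 14.8 to 99.3 CPM). Of the immune markers, 4 of 5 T cell genes and 3 of 6 B and plasma cell genes were higher in humanized mice, and none of 5 macrophage genes was called. Humanized mouse 5 stood apart, with the lowest sums of smooth muscle, fibroblast, endothelial and macrophage markers of all 11 mice.

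Of the 35 receptors, 33 passed the filter on low counts and were tested, while Rxrg and Pgr were not. Of the 33, 4 were higher in humanized mice at FDR < 0.01 (Pparg, Hnf4a, Nr1i2 and Nr1i3), beside 9.2% of all 19863 tested genes, and 4 were lower (Rora, Nr4a3, Esr1 and Nr1h3), beside 10.1% of all tested genes. The RPKM values (CPM per kilobase of gene length) of the groups did not overlap for 5 of the 33, Pparg, Hnf4a, Nr1i3, Rora and Esr1, beside 18.4% of all tested genes. The receptors were thus called about as often as genes in general. The median log2-fold change (LFC, humanized over germ-free) of the 33 was 0.01, beside 0.01 for all tested genes, with 17 values above and 16 below 0. Without humanized mouse 5, 3 were higher and 5 lower.

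**Figure D1:**
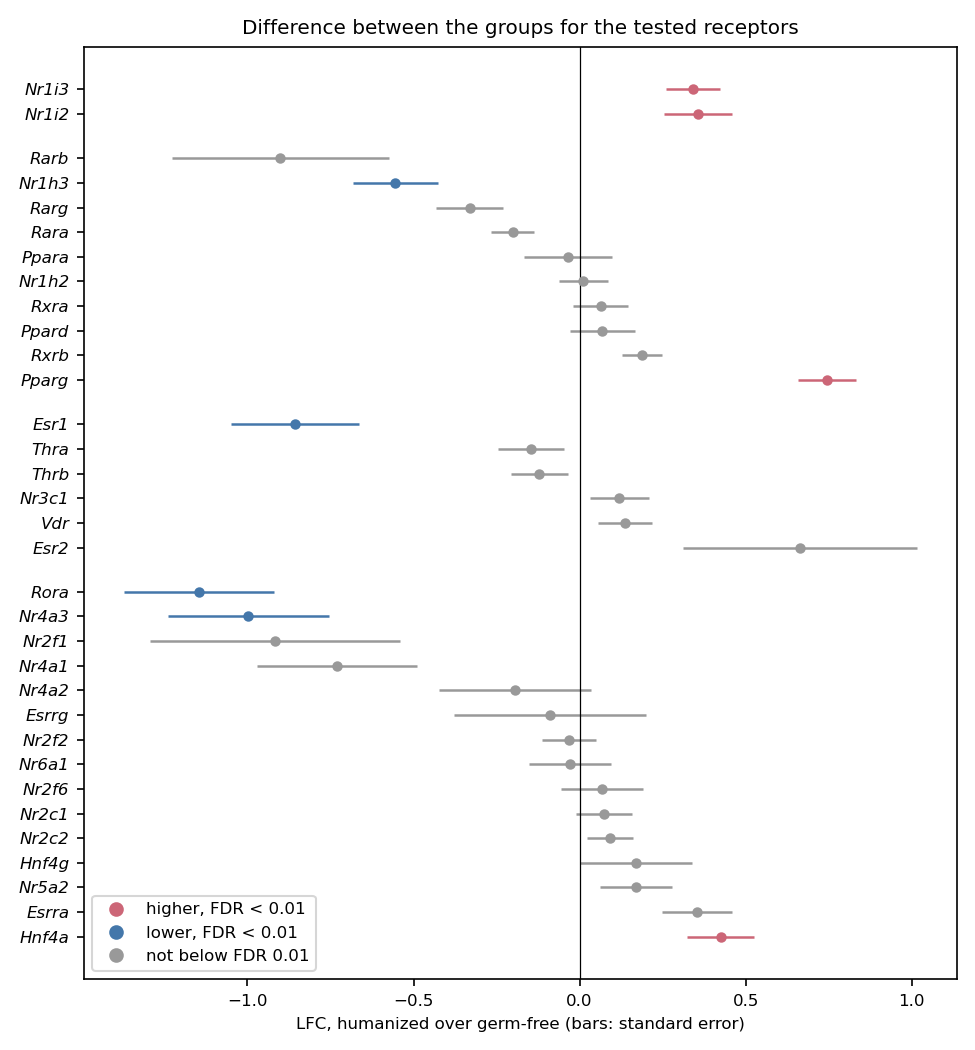
LFC of humanized over germ-free mice for the 33 tested receptors, grouped by role in the order xenobiotic, lipid and retinoid, vitamin D with thyroid and steroid hormone, and orphan; bars are standard errors of edgeR's quasi-likelihood fit. Pparg lies farthest to the right at 0.75 among the 4 called higher, and Rora farthest to the left at −1.15 among the 4 called lower.

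The split between the directions depended on the scaling of the libraries. With total counts in place of TMM factors, 1 receptor was higher and 9 were lower, and with libraries scaled to 11 epithelial markers 1 was higher and 5 were lower. These scalings moved the median LFC of all tested genes to −0.18 and −0.19. Pparg was the receptor that stayed called higher under both. Hnf4a, with LFC of 0.23 and 0.22, Nr1i2, with 0.16 and 0.13, and Nr1i3, with 0.15 and 0.15, did not (FDR from 0.0228 to 0.469). Relative to the shifted median of all genes these receptors lay 0.41 and 0.41, 0.34 and 0.32, and 0.33 and 0.34 higher. A change of scaling moves all genes by about the same amount. These values therefore return about the LFC with TMM factors by construction and are no separate evidence of a difference. With TMM factors, Hnf4a, Nr1i2 and Nr1i3 had LFC of 0.43, 0.36 and 0.34. The epithelial markers, at a median LFC of 0.21, moved in the same direction. Their part in the differences of these receptors was tested only by the scaling to epithelial markers.

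**Figure D2:**
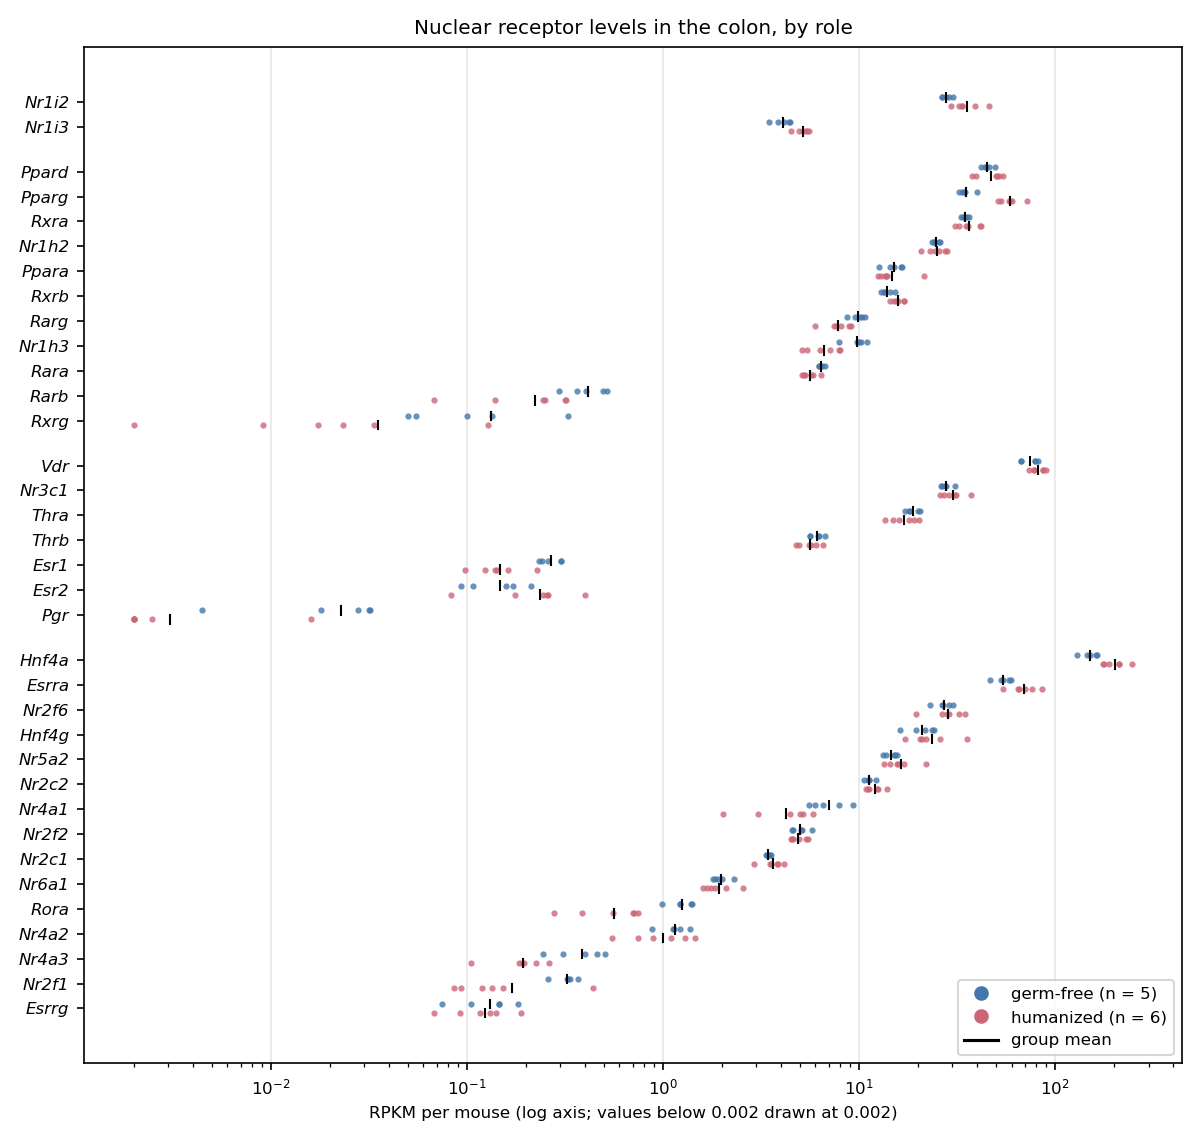
RPKM of the 35 receptors in each mouse on a log axis, grouped by role and ordered by the mean of germ-free mice; points are mice and black lines group means. Hnf4a had the highest level in both groups, and Pgr the lowest.

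PXR (Nr1i2) and CAR (Nr1i3), the xenobiotic receptors that induce cytochrome P450, conjugation and transporter genes in response to drugs and bile acids, were both called higher in humanized mice. Nr1i2 (ENSMUSG00000022809, mm10 chromosome 16, 38248323 to 38294824) measured 30.2, 27.7, 28.8, 26.5 and 26.4 RPKM in the germ-free mice and from 29.5 to 46.3 RPKM with a median of 33.6 in humanized mice. Germ-free mouse 1 lay above the lowest humanized mouse, so the groups overlapped. The LFC was 0.36 ± 0.10 (SE, FDR = 0.00779), a 1.28-fold difference. The call was lost when any of 9 of the 11 mice was left out, with FDR from 0.0104 to 0.0333, and with edgeR's quasi-likelihood test (FDR = 0.021). It was also lost with upper-quartile scaling (FDR = 0.0112), without a filter on low counts (FDR = 0.0135) and with at least 10 counts in every mouse (FDR = 0.0125).

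Nr1i3 (ENSMUSG00000005677, chromosome 1, 171213970 to 171220701) measured 3.5, 4.39, 3.89, 4.17 and 4.43 RPKM in the germ-free mice and from 4.48 to 5.58 RPKM with a median of 5.27 in humanized mice. Every humanized mouse lay above every germ-free mouse, by little. The LFC was 0.34 ± 0.08 (SE, FDR = 0.00505). The exons of Nr1i3 share 74.9% of their bases with those of Tomm40l, a mitochondrial import gene on the opposite strand, in the GENCODE M21 annotation. The library kit does not mark strand, so reads of both genes cannot be told apart, and how the counting treated shared bases is not given in the sources used here. Tomm40l had an LFC of 0.32 ± 0.07 (SE, FDR = 0.00225), close to that of Nr1i3. The Nr1i3 call was also lost when germ-free mouse 1, 3 or 4 or humanized mouse 1, 2 or 6 was left out, with FDR from 0.0118 to 0.0271, with upper-quartile scaling (FDR = 0.0102) and without a filter on low counts (FDR = 0.0138).

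Pparg, whose product drives lipid storage and oxidation genes and is the target of the glitazones, differed most clearly among the receptors called higher. It lies on chromosome 6 from 115361221 to 115490401 (ENSMUSG00000000440). The germ-free mice measured 34.3, 40.0, 32.5, 33.7 and 34.9 RPKM, and the humanized mice from 51.1 to 71.7 RPKM with a median of 58.3. All 6 humanized mice lay well above all germ-free mice. The LFC was 0.75 ± 0.09 (SE, FDR = 3.26e-12), a 1.68-fold difference, and lay between 0.54 and 0.75 over all tests, scalings and filters tried and between 0.68 and 0.79 when single mice were left out.

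The other PPARs were not called. Ppard, the most widely expressed paralog, averaged 45.2 ± 2.86 RPKM (SD, n = 5) in germ-free and 47.4 ± 6.95 RPKM (SD, n = 6) in humanized mice (LFC 0.07 ± 0.10, SE, FDR = 0.695). Ppara, the fasting-response receptor of fatty acid oxidation, averaged 15 ± 1.63 and 14.7 ± 3.34 RPKM (LFC −0.03 ± 0.13, SE, FDR = 0.892), and humanized mouse 5 at 21.4 RPKM was alone above 13.9 RPKM in its group. Per length, Ppard lay above Pparg in all 5 germ-free mice and Pparg above Ppard in all 6 humanized mice. This order rests on the gene lengths of the deposited table, 1984 bases for Pparg and 4631 for Ppard.

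The LXRs sense oxysterols and induce cholesterol efflux genes. Nr1h3 (LXR alpha, ENSMUSG00000002108, chromosome 2, 91184061 to 91202834) was called lower in humanized mice. It measured 7.94, 10.2, 9.82, 10.9 and 9.97 RPKM in germ-free mice and from 5.10 to 8.02 RPKM with a median of 6.76 in humanized mice. The groups met only at germ-free mouse 1, the lowest of its group, which lay below the highest humanized mouse. The LFC was −0.55 ± 0.13 (SE, FDR = 0.000954). Nr1h2 (LXR beta), its ubiquitous paralog, averaged 24.7 ± 0.915 (SD, n = 5) and 24.9 ± 2.72 RPKM (SD, n = 6), with an LFC of 0.01 ± 0.07 (SE, FDR = 0.952) that changed sign with the scaling. The summed macrophage markers, a cell type known for high LXR alpha, ranged from 82.9 to 108 CPM in germ-free and from 20.6 to 112 CPM in humanized mice, and their part in the Nr1h3 difference was not tested.

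None of the retinoid receptors was called. RXR is the shared partner of many other receptors. Rxra averaged 34.7 ± 1.28 RPKM (SD, n = 5) in germ-free and 36.3 ± 4.56 RPKM (SD, n = 6) in humanized mice, and Rxrb 13.9 ± 0.922 and 15.8 ± 1.04 RPKM (LFC 0.19 ± 0.06, SE, FDR = 0.0483). Rxrg, which failed the filter, had 6 to 47 reads in germ-free and 0 to 14 reads in humanized mice. The retinoic acid receptors all had values below 0, with LFC of −0.33 ± 0.10 for Rarg (SE, FDR = 0.0153), −0.20 ± 0.06 for Rara (FDR = 0.061) and −0.90 ± 0.33 for Rarb (FDR = 0.0293). Rarg is the nearest to a call of these. It passed FDR < 0.01 without humanized mouse 4 (LFC −0.38, FDR = 0.00509) or 5 (LFC −0.37, FDR = 0.00468), with libraries scaled to epithelial markers (FDR = 0.00844), with upper-quartile scaling (FDR = 0.00562) and with at least 10 counts in every mouse (FDR = 0.00728). With total counts all 3 retinoic acid receptors were called lower, Rarg with an LFC of −0.52 (FDR = 0.000119), Rara with −0.39 (FDR = 0.000354) and Rarb with −1.09 (FDR = 0.00723). Rarb was measured by 8 to 98 reads per mouse. In GENCODE M21, 38.0% of its exon bases are shared with Top2b on the opposite strand. In the deposited gene positions the genes share no base, as Top2b ends at 16430787 and Rarb starts at 16430842.

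None of the receptors for vitamin D, thyroid hormone and glucocorticoids was called. The vitamin D receptor Vdr, second only to Hnf4a in level, averaged 74.8 ± 7.42 RPKM (SD, n = 5) in germ-free and 82.3 ± 6.57 RPKM (SD, n = 6) in humanized mice (LFC 0.14 ± 0.08, SE, FDR = 0.27). The glucocorticoid receptor gene Nr3c1 averaged 27.8 ± 1.82 and 30.2 ± 4.06 RPKM (LFC 0.12 ± 0.09, SE, FDR = 0.407). Both values changed sign with total-count scaling and with scaling to epithelial markers. Thra and Thrb, the thyroid hormone receptors, had LFC of −0.15 ± 0.10 (SE, FDR = 0.344) and −0.12 ± 0.09 (SE, FDR = 0.394), and Thrb passed the threshold with total-count scaling alone (FDR = 0.00624). Thra shares 5.70% of its exon bases with the clock gene Nr1d1 on the opposite strand.

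Of the sex steroid receptors, Esr1 (oestrogen receptor alpha, ENSMUSG00000019768, chromosome 10, 4611593 to 5005614) was called lower in humanized mice. It measured 0.302, 0.242, 0.303, 0.259 and 0.234 RPKM in germ-free mice and from 0.0973 to 0.227 RPKM with a median of 0.140 in humanized mice, from 62 to 260 reads per mouse. The groups did not overlap, though humanized mouse 2 lay just under the lowest germ-free mouse. The LFC was −0.86 ± 0.19 (SE, FDR = 0.00099). Esr2 (oestrogen receptor beta) had an LFC of the other sign, 0.66 ± 0.35 (SE, FDR = 0.192), from 14 to 64 reads per mouse. The progesterone receptor gene Pgr, not tested, had 2 to 19 reads in germ-free mice and 0 to 5 reads in humanized mice, 4 of which had none.

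Hnf4a was the most highly expressed receptor in both groups, at percentile 98.6 of all tested genes in germ-free and 98.7 in humanized mice by RPKM. It lies on chromosome 2 from 163506808 to 163572910 (ENSMUSG00000017950). It measured 130.1, 145, 151, 164 and 161 RPKM in germ-free mice and from 175 to 247 RPKM with a median of 199 in humanized mice. The lowest humanized mouse lay above the highest germ-free mouse. The LFC was 0.43 ± 0.10 (SE, FDR = 0.000608), a 1.34-fold difference. Its gut paralog Hnf4g was not called, with 21.1 ± 3.30 RPKM (SD, n = 5) against 23.7 ± 6.47 RPKM (SD, n = 6) and an LFC of 0.17 ± 0.17 (SE, FDR = 0.52).

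Esrra, a driver of mitochondrial genes, lay just outside the threshold. It measured 46.7, 54.4, 59.5, 53.3 and 58.5 RPKM in germ-free mice and from 54.5 to 85.6 RPKM with a median of 67.7 in humanized mice, with overlap (LFC 0.35 ± 0.11, SE, FDR = 0.0107). Without humanized mouse 2, the lowest of its group, the LFC was 0.41 (FDR = 0.000763), and DESeq2 called the gene on all mice (adjusted p = 0.00934). Esrrg was near the lower end of the levels, at 0.131 ± 0.0419 RPKM (SD, n = 5) and 0.123 ± 0.0422 RPKM (SD, n = 6). Nr5a2, the liver receptor homolog that supports crypt renewal and local steroid synthesis, had an LFC of 0.17 ± 0.11 (SE, FDR = 0.301). Nr6a1, the germ cell nuclear factor, had an LFC of −0.03 ± 0.12 (SE, FDR = 0.91).

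Rora, a receptor of the clock and of innate lymphoid and stromal cells, had the largest LFC in size of the 33. It lies on chromosome 9 from 68653786 to 69388246 (ENSMUSG00000032238). It measured 1.39, 0.988, 1.22, 1.41 and 1.23 RPKM in germ-free mice and from 0.279 to 0.748 RPKM with a median of 0.627 in humanized mice. The groups did not overlap, and humanized mice 5 and 1 were lowest. The LFC was −1.15 ± 0.23 (SE, FDR = 3.23e-05), so the level in humanized mice was 0.452 times that in germ-free mice. Humanized mouse 5, lowest for Rora, was also lowest for fibroblast and smooth muscle markers, and without it the Rora LFC was −1.01 (FDR = 9.22e-07). The part of the stromal markers in the difference was not tested.

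The NR4A receptors, whose promoters are printed above, all had LFC below 0, and Nr4a3 passed the test. Nr4a3 (ENSMUSG00000028341, chromosome 4, 48045153 to 48086447) measured 0.403, 0.310, 0.246, 0.506 and 0.461 RPKM in germ-free mice and from 0.105 to 0.262 RPKM with a median of 0.193 in humanized mice. Humanized mouse 4 lay above germ-free mouse 3, so the groups overlapped. The LFC was −1.0 ± 0.24 (SE, FDR = 0.0017), and the call was lost without germ-free mouse 4 (LFC −0.88, FDR = 0.0132) or 5 (LFC −0.92, FDR = 0.0109).

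Nr4a1 was the most abundant of the family. It measured 5.99, 6.53, 5.54, 9.37 and 7.86 RPKM in germ-free mice and from 2.02 to 5.82 RPKM with a median of 4.74 in humanized mice. Germ-free mouse 3 lay below humanized mouse 2, so the groups overlapped here as well. The LFC was −0.73 ± 0.24 (SE, FDR = 0.0171). It passed FDR < 0.01 without humanized mouse 2 (LFC −0.85, FDR = 0.00656), with total-count scaling (LFC −0.90, FDR = 0.00503) and with DESeq2 (adjusted p = 0.00963). Nr4a2 averaged 1.15 ± 0.177 RPKM (SD, n = 5) in germ-free and 1.01 ± 0.344 RPKM (SD, n = 6) in humanized mice (LFC −0.19 ± 0.23, SE, FDR = 0.629).

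The COUP-TF and testicular receptors are orphans that often repress through the same DNA elements as the liganded receptors. Nr2f6, Nr2f2, Nr2c1 and Nr2c2 had LFC from −0.03 to 0.09, with FDR of 0.455 or more. Nr2f6 shares 54.4% of its exon bases with Ocel1 and Nr2c2 30.7% with Mrps25, both on the opposite strand in GENCODE M21. That annotation gives Nr2c2 14935 exon bases against a deposited length of 9152, so its share can differ for the gene as counted. Nr2f1 turned on a single animal. It measured 0.260, 0.326, 0.371, 0.337 and 0.328 RPKM in germ-free mice, and humanized mouse 3 at 0.439 RPKM lay above all of them while the other humanized mice ranged from 0.0860 to 0.153 RPKM. The LFC was −0.92 ± 0.38 with all mice (SE, FDR = 0.0624) and −1.47 without humanized mouse 3 (FDR = 7.77e-09). Humanized mouse 3 also had the highest fibroblast and endothelial marker sums of its group, 1047 and 99.3 CPM, and their part was not tested.

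**Figure D3:**
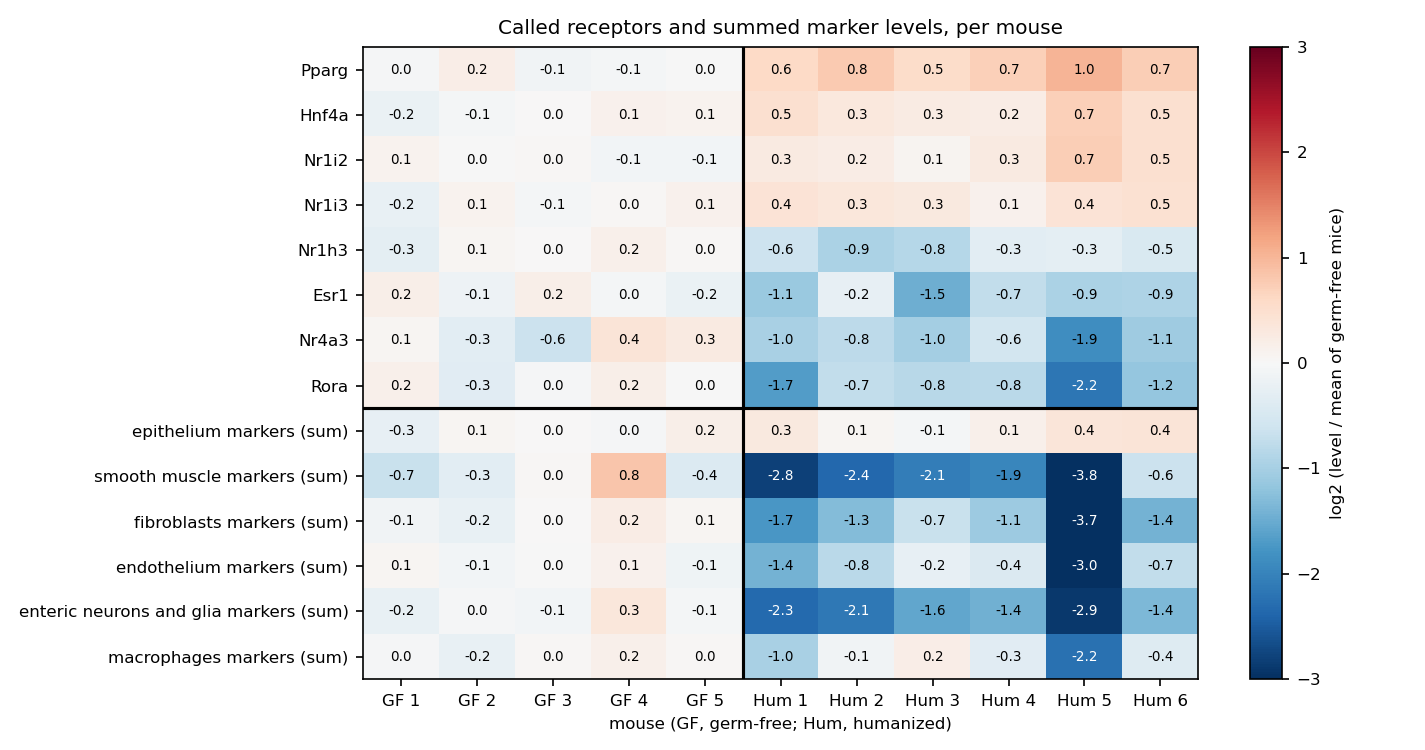
The 8 called receptors (RPKM, upper rows) and summed markers of 6 cell types (CPM, lower rows) in each of the 11 mice, as log2 of the level over the mean of germ-free mice. The 4 receptors called lower and the stromal marker sums lie below the germ-free mean in all humanized mice, most of all in humanized mouse 5 for Rora, Nr4a3 and the stromal sums, and Pparg is highest in that mouse.

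Paralog shares within a mouse do not depend on how libraries are scaled. The share of each paralog in the summed RPKM of its family was compared between the groups for 22 shares in 12 families by an exact permutation test over all assignments of the mice to groups of 5 and 6, two-sided, where the smallest possible p is 0.00216. After Benjamini–Hochberg correction, 6 shares differed below 0.05. Pparg made up 36.8 ± 2.75% (SD, n = 5) of PPAR expression in germ-free and 48.7 ± 3.15% (SD, n = 6) in humanized mice, without overlap (exact permutation p = 0.00216, adjusted 0.0317). Ppard fell from 47.4 ± 1.84% to 39.2 ± 3.38% (adjusted exact permutation p = 0.0317) and Ppara from 15.8 ± 1.85% to 12.1 ± 1.32% (adjusted exact permutation p = 0.0381). The summed PPAR level was 95.3 ± 3.07 RPKM (SD, n = 5) and 121 ± 15.1 RPKM (SD, n = 6), while the levels of Ppard and Ppara alone were not called.

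Nr1h3 made up 28.3 ± 2.92% (SD, n = 5) of LXR expression in germ-free and 21 ± 2.08% (SD, n = 6) in humanized mice (adjusted exact permutation p = 0.0317). Esr1 made up 65.1 ± 5.51% of oestrogen receptor expression in germ-free and 40.6 ± 13.1% in humanized mice (adjusted exact permutation p = 0.0381), at the low counts given above. Nr4a1 went from 81.9 ± 2.19% to 77.7 ± 2.18% of NR4A expression (adjusted exact permutation p = 0.0476). Nr1i2 made up 87.2 ± 1.63% of the sum of PXR and CAR in germ-free and 87.2 ± 1.52% in humanized mice (exact permutation p = 1). Shares of CPM, without gene lengths, left 3 below the threshold, those of Pparg, Ppard and Nr1h3, and 0 to 5 shares passed when single mice were left out, which also raises the smallest possible p.

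**Figure D4:**
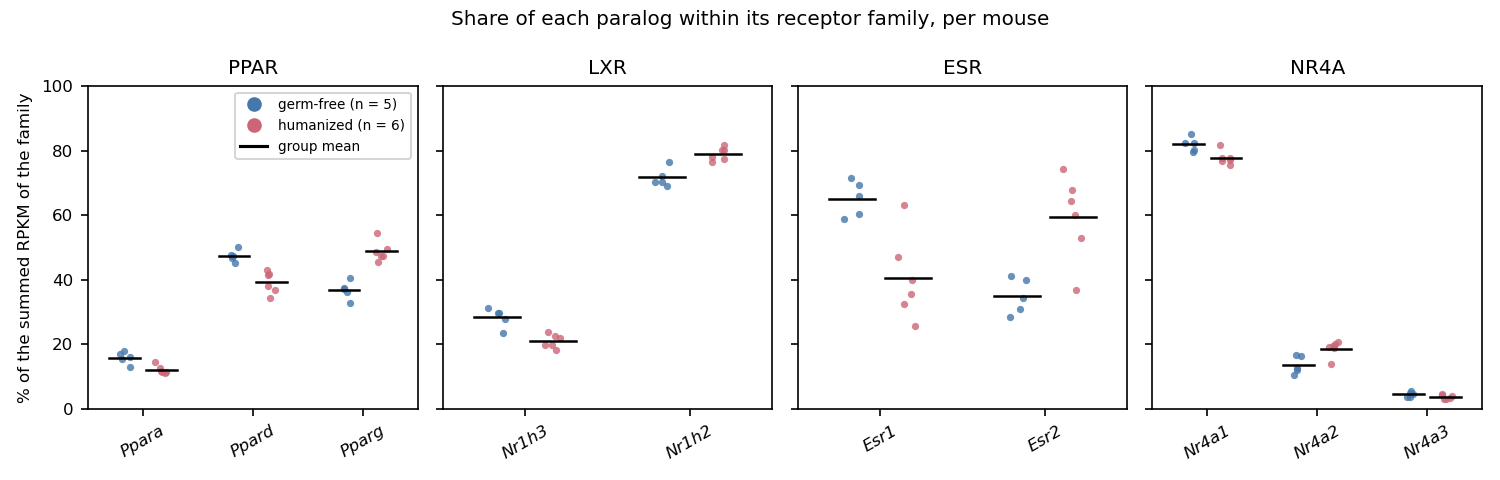
Share of each paralog in the summed RPKM of the PPAR, LXR, oestrogen receptor (ESR) and NR4A families, in percent; points are mice and black lines group means. In the PPAR family the 6 humanized mice lie above all germ-free mice for Pparg and below them for Ppard.

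Levels spread over a wide range. In germ-free mice the means ran from 150.4 RPKM for Hnf4a through 74.8 for Vdr and 54.5 for Esrra down to 0.0228 for Pgr, and the first 3 places and places 6 to 12 were the same in humanized mice. Neighbours such as Pparg and Rxra at 35.1 ± 2.87 and 34.7 ± 1.28 RPKM (SD, n = 5), or Nr1i2 and Nr3c1 at 27.9 ± 1.61 and 27.8 ± 1.82 RPKM, did not differ beyond their spread in germ-free mice. The coefficient of variation was higher in humanized mice for 28 of the 33 receptors (84.8%), as for 80.2% of all tested genes. Among humanized mice, mouse 5 had the highest RPKM for 15 of the 33, against 23.4% of all tested genes.

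Of 14 other receptors of the superfamily, 9 were tested and 1 was called, beside 9.2% of all tested genes called higher and 10.1% called lower. The median LFC of the 9 was −0.06.

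Coregulators carry the response of the receptors to the transcription machinery. Of 14 coactivators, 1 was higher and none lower. This count and those of the corepressors below stand beside 9.2% of all tested genes higher and 10.1% lower. Ncoa7, a coactivator also known for resistance to oxidative stress, rose from 7.47 ± 1.13 RPKM (SD, n = 5) in germ-free to 23.2 ± 5.59 RPKM (SD, n = 6) in humanized mice, with an LFC of 1.64 ± 0.16 (SE, FDR = 1.64e-19). The median LFC of all 14 coactivators was −0.05. Of 9 corepressors, 2 were higher, the NCoR complex members Tbl1xr1 (LFC 0.33 ± 0.07, SE, FDR = 0.000743) and Hdac3 (LFC 0.24 ± 0.05, SE, FDR = 0.00249). Another 2 were lower, among them Hr (LFC −0.47 ± 0.11, SE, FDR = 0.00131). The calls of Tbl1xr1 and Hdac3 ended with total-count scaling and with scaling to epithelial markers. That of Hdac3 also ended without germ-free mouse 1, 3 or 4 or humanized mouse 1, and that of Hr without germ-free mouse 3 or 4.

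Known target genes of the receptors and 6 steroid enzymes were counted by list, 87 genes in all, of which 74 were tested, 28 were higher and 15 lower, with a median LFC of 0.28. These counts and those of each list stand beside 9.2% of all tested genes higher and 10.1% lower, and beside a median LFC of 0.0084 over all tested genes. Of 14 tested PPAR targets, which serve fatty acid oxidation and transport, 11 were higher and none lower, with a median LFC of 0.80. Pdk4, which spares glucose, went from 6.30 ± 1.81 RPKM (SD, n = 5) to 16.8 ± 4.59 RPKM (SD, n = 6), an LFC of 1.41 ± 0.21 (SE, FDR = 6.05e-09). Acaa1b, a peroxisomal thiolase, had an LFC of 1.09 ± 0.11 (SE, FDR = 1.75e-16). The smallest differences among the 11 called were those of Ehhadh (LFC 0.54 ± 0.07, SE, FDR = 2.85e-08) and Acadm (LFC 0.29 ± 0.08, SE, FDR = 0.00799), and Acadm lost its call with the quasi-likelihood test (FDR = 0.0186) and without any 1 of the mice other than humanized mice 1 and 3. The 3 targets not called were all named after their values were seen. The lipase inhibitor gene Angptl4 had an LFC of −0.08 (FDR = 0.862). The fatty acid transporter gene Cd36 had one of −1.08 (FDR = 0.0165), without overlap of the groups. Cyp4a10, at 0.220 RPKM in germ-free and 0.552 RPKM in humanized mice, had one of 1.31 (FDR = 0.014). Of 8 tested PXR and CAR targets, 4 were higher and 1 lower. Cyp2c55, a colonic cytochrome P450, went from 292 ± 26.7 RPKM (SD, n = 5) to 1502 ± 206 RPKM (SD, n = 6), an LFC of 2.36 ± 0.11 (SE, FDR = 7.75e-90). The others were the export pumps Abcc3 (LFC 0.79 ± 0.12, SE) and Abcb1a (LFC 0.75 ± 0.13, SE) and the P450 electron donor Por (LFC 0.51 ± 0.08, SE). The classical CAR target Cyp2b10, named after its values were seen, was the gene called lower, at 0.251 ± 0.112 RPKM (SD, n = 5) and 0.0684 ± 0.0494 RPKM (SD, n = 6), and this call ended with the quasi-likelihood test (FDR = 0.0206).

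Of 8 tested LXR targets, 4 were lower, 1 was higher and 3 were not called, with a median LFC of −0.47. Those not called, named after their values were seen, were the sterol regulator Srebf1 (LFC −0.37, FDR = 0.0142) and the sterol exporter genes Abcg5 (LFC 0.95, FDR = 0.454) and Abcg8 (LFC 0.58, FDR = 0.64). The cholesterol exporters Abca1 (4.38 ± 1.46 RPKM, SD, n = 5, against 1.87 ± 0.529 RPKM, SD, n = 6) and Abcg1 (1.67 ± 0.352 against 0.870 ± 0.187 RPKM) had LFC of −1.23 ± 0.22 (SE, FDR = 1.82e-06) and −0.94 ± 0.18 (SE, FDR = 8.58e-05). Mylip, which degrades the LDL receptor, had an LFC of −0.57 ± 0.14 (SE, FDR = 0.000708), and the phospholipid transfer gene Pltp, named after its values were seen, one of −0.82 (FDR = 0.000141). Lpcat3, a phospholipid remodelling enzyme, was higher (LFC 0.39 ± 0.08, SE, FDR = 0.000446), but not with total-count scaling or scaling to epithelial markers.

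Of 9 tested targets of the glucocorticoid receptor, whose gene Nr3c1 was not called, 6 were lower and none higher, all 9 had LFC below 0, and the median was −0.96. Dusp1 (FDR = 0.0141), Klf9 (FDR = 0.0425) and Mt2 (FDR = 0.186) did not pass, and Zbtb16, named after its values were seen like these 3, lost its call with the quasi-likelihood test (FDR = 0.0134). Sgk1, the kinase that promotes sodium uptake, went from 66.3 ± 11.6 RPKM (SD, n = 5) to 28.8 ± 3.01 RPKM (SD, n = 6), an LFC of −1.20 ± 0.12 (SE, FDR = 5.47e-20). The clock gene Per1 had an LFC of −1.05 ± 0.11 (SE, FDR = 1.79e-15). The smallest called differences were those of Errfi1, an inhibitor of the EGF receptor, at −0.77 ± 0.12 (SE, FDR = 2.13e-08) and of the chaperone Fkbp5 at −0.40 ± 0.10 (SE, FDR = 0.0011). Hsd11b2 and Hsd11b1, which inactivate and regenerate corticosterone, had LFC of −0.0047 and −0.64 and were not called, and of the 6 steroid enzymes 3 were tested and none was called.

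Of 5 listed targets of the vitamin D receptor, 3 were tested, and all 3 were higher although Vdr was not called. The others, Cyp24a1 and Trpv6, named after their values were seen, failed the filter on low counts. Cyp24a1 averaged 0.0027 RPKM in germ-free and 0.00099 RPKM in humanized mice, and Trpv6 0.0081 and 0 RPKM. The calcium carrier S100g went from 1.5 ± 0.574 RPKM (SD, n = 5) to 17.3 ± 4.99 RPKM (SD, n = 6), an LFC of 3.53 ± 0.31 (SE, FDR = 2.38e-23). The manganese exporter Slc30a10 had an LFC of 2.52 ± 0.28 (SE, FDR = 7.89e-17) and the calcium pump gene Atp2b1 one of 0.74 ± 0.11 (SE, FDR = 1.81e-08). Of 7 tested retinoic acid receptor targets, 2 were lower, Lrat, which esterifies retinol (LFC −1.12 ± 0.17, SE, FDR = 1.33e-08), and the transglutaminase Tgm2 (LFC −0.50 ± 0.15, SE, FDR = 0.0077), which lost its call with the quasi-likelihood test (FDR = 0.0262) and without any 1 of the mice other than germ-free mouse 2 and humanized mice 3 and 5. Of 4 thyroid hormone receptor targets, 2 were higher, the malic enzyme gene Me1 (LFC 1.55 ± 0.15, SE, FDR = 6.46e-21) and the deiodinase Dio1 (LFC 1.37 ± 0.14, SE, FDR = 3.67e-19).

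Of 8 ERR targets, genes of mitochondrial energy metabolism, 5 were higher and all 8 had LFC above 0. Cytochrome c (Cycs) and the ATP synthase subunit gene Atp5b had LFC of 0.69 ± 0.10 (SE, FDR = 4.33e-09) and 0.39 ± 0.09 (SE, FDR = 0.000418). The tricarboxylic acid cycle gene Idh3a had an LFC of 0.31 ± 0.07 (SE, FDR = 0.00212). Perm1, named after its values were seen, was also among the 5, at 0.408 ± 0.0452 against 0.662 ± 0.155 RPKM (SD, n = 5 and 6), but not with the quasi-likelihood test (FDR = 0.0136). With total-count scaling or scaling to epithelial markers, 1 of the 8 was called. The number called was 2 without germ-free mouse 1, 3 without germ-free mouse 3 or 4, when Idh3a lost its call as it did without mouse 1, and 4 or 5 without any other mouse. Of 8 HNF4 targets, 1 was called, the apolipoprotein gene Apoc3, which was lower (LFC −3.33 ± 0.72, SE, FDR = 0.000233) while Hnf4a itself was higher. Apoc3 was low and varied widely between mice, at 1.98 ± 1.19 RPKM (SD, n = 5) in germ-free and 0.191 ± 0.230 RPKM (SD, n = 6) in humanized mice. Without humanized mouse 6 the LFC of Apoc3 was −4.07 and 3 of the 8 were called. Of 3 tested oestrogen receptor targets, Ctsd (LFC 0.34 ± 0.07, SE, FDR = 0.000408) and Ltf were higher and Greb1 (LFC −1.01 ± 0.11, SE, FDR = 2.22e-14) was lower. Ltf (LFC 2.85, FDR = 7.94e-12) was named after its values were seen. It was barely detected, at 0.0272 ± 0.0219 RPKM (SD, n = 5) in germ-free and 0.197 ± 0.0406 RPKM (SD, n = 6) in humanized mice. Most target genes answer to other regulators as well, and the part of cell composition in these lists was not tested.

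**Figure D5:**
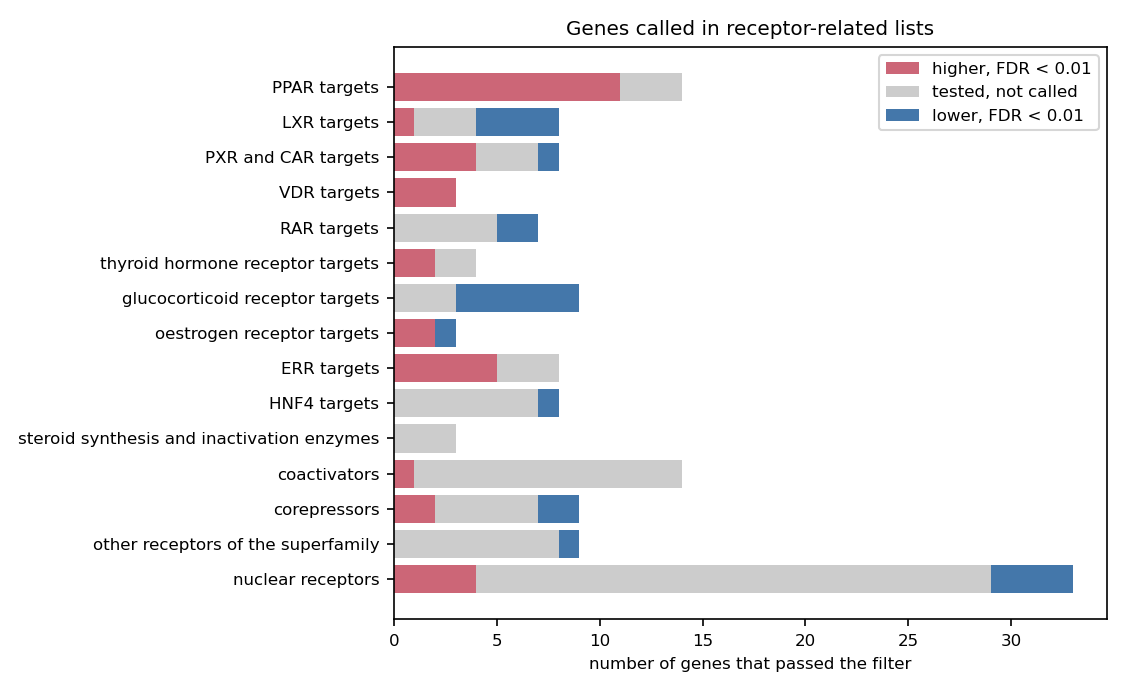
Number of genes called higher, not called and called lower at FDR < 0.01 in each target, enzyme and coregulator list and among the receptors; bars start at 0 and count the genes that passed the filter on low counts. PPAR targets have 11 of 14 genes higher and glucocorticoid receptor targets 6 of 9 lower.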

How the data were processed

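RNA of the colon of 5 germ-free and 6 humanized mice was sequenced from TruSeq v2 libraries, which do not mark strand. Per the labels and the methods of the study, the authors aligned the reads to mm10 with TopHat2 2.1.0 and Bowtie2 2.2.3, counted them per gene with featureCounts of Subread 1.4.6-p5, and left the raw counts of 43346 genes as deposited values, beside gene positions and a length named coding length. That length equals the merged exon length of GENCODE M21 for 22 of the 35 receptors, so it is not limited to coding bases. Strand and overlap settings of the counting are not given in the sources used here.

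The analysis used edgeR 4.0.16 under R 4.3.3. Genes passed filterByExpr at its default settings, libraries were scaled with TMM and the groups were compared with edgeR's exact test after estimateDisp, as in the study's methods, with Benjamini–Hochberg correction over the 19863 genes kept and FDR < 0.01 as the call. Standard errors came from the quasi-likelihood fit. RPKM used TMM-scaled libraries and the deposited lengths. Counts of mice within a group differed beyond counting noise in every pair (mean chi-square per gene 21.2 to 123). The tests were tried on simulated data. Paralog shares were compared by exact permutation. Alternatives were the quasi-likelihood test, DESeq2 1.42.0, other scalings, filters and thresholds, leaving out each mouse, and a block on the mouse number.

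The receptors, gene lists and tests were chosen with earlier results of these data known. Named were all 35 receptors, other receptors of the superfamily at FDR < 0.01, and in each coregulator and target list the 2 highest and 2 lowest LFC among genes at FDR < 0.01 with a mean RPKM of at least 1 in a group. A few genes that this rule names are not reported here. Lists of targets can share genes. Exon overlaps came from GENCODE M21 on GRCm38, the assembly of mm10. Markers of interstitial cells of Cajal, adipocytes and skeletal muscle were also counted, with 0 of 2, 0 of 1 and 2 of 2 tested genes lower.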

Additional observations from a re-analysis of the deposited data

Results flagged for a closer look

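Groups of 5 or 6 mice were screened for a mouse that stands far from the others, by the gap to its nearest neighbour over the whole range of the group, for 114 groups of receptor levels and family shares. The screen marks about 1 in 20 groups by chance, and 12 were marked. In levels, humanized mouse 5 was marked for Ppara, at 21.4 RPKM against 12.5 to 13.9 RPKM (ratio 0.845). Humanized mouse 3 was marked for Nr2f1, at 0.439 RPKM against 0.0860 to 0.153 RPKM (ratio 0.81), and for Rxrg, at 0.129 RPKM against 0 to 0.0336 RPKM (ratio 0.739). Humanized mouse 1 was marked for Pgr, at 0.0159 RPKM against 0 to 0.00247 RPKM (ratio 0.845). Rxrg and Pgr rest on few reads.

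In family shares, humanized mouse 4 was marked for Nr4a1, at 81.9% against 75.5 to 77.6% of NR4A expression (ratio 0.673), and for Nr4a2, at 14% against 18.7 to 20.6% (ratio 0.711). Humanized mouse 6 was marked for Hnf4a, at 85.6% against 89.3 to 91.2% of HNF4 expression (ratio 0.669), and for Rara, at 45.6% against 38.7 to 41.2% of RAR expression (ratio 0.643). Germ-free mouse 5 was marked for Rara as well, at 41.5% against 37.5 to 38.5% (ratio 0.74), and germ-free mouse 1 for Nr2c1, at 21.6% against 23.7 to 24.3% of NR2C expression (ratio 0.771). Humanized mouse 3 was marked for the shares of Nr2f1, at 1.32% against 0.220 to 0.620% (ratio 0.637), and of Rxrg, at 0.277% against 0 to 0.0659% (ratio 0.762).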

How the results depend on the processing

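The receptors called were 4 higher and 4 lower, beside 1 other receptor, 5 coregulators and 43 target and enzyme genes. The number higher was 2 with upper-quartile scaling and without a filter on low counts, 1 with total counts, with scaling to epithelial markers and with the replicate block, 0 with an absolute LFC above 1 required, and 6 at FDR < 0.05, where Rxrb and Esrra were added. The number lower was 9 with total counts, 7 at FDR < 0.05, 1 with the LFC limit and 0 with the replicate block. Other receptors called numbered 2 with total counts and at FDR < 0.05, and 0 with at least 10 counts in every mouse, where fewer genes were tested. Coregulators numbered 10 with total counts, 1 with the LFC limit and 2 with the replicate block, and target and enzyme genes 18 with the LFC limit and 24 with the replicate block.

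Leaving out each mouse in turn gave 2 to 4 receptors higher, 3 to 5 lower, 1 to 3 other receptors, 2 to 6 coregulators, 37 to 46 target and enzyme genes, and 0 to 5 paralog shares, from 6. The number higher was 2 without germ-free mouse 1, 3 or 4 or humanized mouse 1 or 6, when Nr1i2 and Nr1i3 were lost. Other receptors numbered 3 without germ-free mouse 2 and 2 without humanized mouse 2, and coregulators 2 without germ-free mouse 3 or 4. Paralog shares numbered 0 without germ-free mouse 3, 4 or 5 or humanized mouse 1, 2 or 5, and 3 without germ-free mouse 1. They numbered 3 as shares of CPM and 0 at an adjusted p below 0.01.

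The mouse numbers of the labels do not pair the mice: deviations of same-numbered mice from their group means correlated between −0.13 and 0.091 over 5 pairs. With the replicate block, Pparg alone stayed called.

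Signs turned for receptors that were not called. With total counts and with scaling to epithelial markers, in that order, LFC were −0.18 and −0.19 for Nr1h2, −0.12 and −0.14 for Ppard, −0.13 and −0.15 for Rxra, −0.051 and −0.069 for Vdr, −0.071 and −0.088 for Nr3c1, −0.023 and −0.043 for Hnf4g, −0.022 and −0.040 for Nr5a2, −0.12 and −0.13 for Nr2c1, −0.099 and −0.12 for Nr2c2, and −0.12 and −0.13 for Nr2f6. Rxrb turned to −0.0095 with epithelial scaling. Nr1h2 also turned with upper-quartile scaling (−0.028) and with at least 10 counts in every mouse (−0.013). Total counts and epithelial scaling moved the median LFC of all tested genes from 0.0084 to −0.18 and −0.19 and upper-quartile scaling to −0.028, and these receptors moved with it. The cause of the turn with at least 10 counts was not tested. Leaving out single mice turned the sign of Nr1h2 (−0.030 to 0.053), Ppara (−0.17 to 0.0048), Esrrg (−0.27 to 0.062), Nr2f2 (−0.070 to 0.022) and Nr6a1 (−0.14 to 0.031), and of the differences in share of Nr1i2 (−0.475 to 0.599 percentage points), Thra (−1.16 to 0.455), Nr2c1 (−0.749 to 0.301) and Nr2f2 (−1.61 to 0.44). Of the called receptors, none changed sign under any of these alternatives. Low counts limit the precision for Esr1 and Nr4a3, and for Esr2, Rarb, Nr2f1, Esrrg, Rxrg and Pgr a difference could go undetected at this depth.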
